A study of Homo sapiens with 6 samples.

Results

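The ubiquitin regulators of NF-κB described here are 10 genes fixed by symbol, namely TNFAIP3 (which encodes A20) with its binding partners TNIP1 and TNIP2, the deubiquitinases CYLD and OTULIN, the linear ubiquitin chain assembly complex (LUBAC) genes RNF31, RBCK1 and SHARPIN, and the adaptor genes TRAF1 and TRAF2. All 10 were among the 30267 genes of the deposited table, and all 10 passed the filter on low values that left 16554 genes for testing. RNA was measured in SW839, a line established from a renal cell carcinoma. An RNF25 hairpin was carried by the cells of 3 libraries (shRNF25), and the pLKO vector by those of the other 3 (shControl). The treatment text of every sample, shControl included, speaks of an RNF25 hairpin plasmid, so that the groups rest on titles, genotype labels and library names. The shRNF25 library names share a single hairpin name and form, those of shControl differ in form, and the series text calls the triplicates biological without saying that they came from separate cultures. The p-values measure the spread between these libraries, which may in part be technical.

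Signaling from TNF and interleukin receptors to NF-κB runs on ubiquitin chains. TRAF and cIAP ligases place lysine-linked chains on the receptor complex, LUBAC extends them with linear chains, and the chains hold the kinases that release NF-κB. A20, CYLD and OTULIN limit these chains, A20 together with the TNIP proteins that bind it, and TNFAIP3 is itself a classic NF-κB target gene that closes a feedback loop.

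Between 18647460 and 19943154 reads per library fell on genes. The knockdown was visible in its target, since RNF25 was at 694.2, 533.5 and 536.4 normalized counts in shControl and at 214.1, 245.7 and 265.0 in shRNF25, which is -1.27 ± 0.150 (SE) on the log2 scale with a limma adjusted p of 0.000585. The library shControl replicate 1 stood apart, with 12.1% of its reads on mitochondrial genes against 3.58% to 4.44% in the other 5. Of 8 renal carcinoma and epithelial markers 7 were measured, and their summed normalized count was 71129 to 90142 in shControl and 80711 to 84454 in shRNF25. That sum was carried by KRT8, KRT18 and KRT19, and single markers moved apart. KRT8 lay at 22206 to 31848 in shControl and higher, at 35088 to 38009, in shRNF25. KRT18 lay at 15768 to 17866 in shControl and 17393 to 18790 in shRNF25, with overlap. VIM, the mesenchymal filament gene vimentin, lay at 202.9 to 447.7 in shControl and rose to 803.7 to 882.0 in shRNF25 (log2 fold change 1.31, adjusted p = 0.00805 from limma), whereas KRT19 fell and lay at 26663 to 35236 in shControl and 21617 to 22663 in shRNF25 (-0.47, adjusted p = 0.0278 from limma). EPCAM lay at 4797 to 5912 and 4205 to 4519 (-0.32, adjusted p = 0.0742 from limma) and PAX8 at 118.0 to 140.3 and 76.7 to 109.6 (-0.45, adjusted p = 0.110 from limma). CA9, a hypoxia target typical of clear cell tumours, lay at 7.74 to 50.7 in shControl and 1.85 to 8.20 in shRNF25. The leukocyte markers summed to 11.4 to 22.8 over all libraries, and the endothelial markers to 489.4 to 695.1 in shControl and 494.1 to 645.1 in shRNF25. Within the endothelial list CDH5 lay at 73.0 to 198.6 in shControl and 3.64 to 8.31 in shRNF25, and KDR at 17.3 to 29.8 and 81.3 to 88.4. The part of these markers in the results was not tested. Any batch shared by all libraries of a group and the hairpin cannot be told apart. The same holds in bulk RNA for fewer cells of a kind and less RNA per cell.

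TNFAIP3 and TNIP1 fell to 22.0% and 26.7% of their control means in shRNF25. No other member passed the study's criteria, which ask for 1.5-fold or more and an adjusted p under 0.05. Of the 10 members, 2 were called lower and 0 higher, where 7.1% of all tested genes were called lower, 8.65% higher and 15.7% in either direction. The count of higher members was 0 with limma, edgeR and DESeq2 alike, and 0 also at an unadjusted p below 0.05 with each of these tools. CYLD was lower by less than 1.5-fold with an adjusted p just under the threshold, and the other 7 members did not pass the test. Over the members the median log2 fold change was -0.16 and over all tested genes -0.01. The groups did not overlap for 5 members, against 42.5% of all tested genes, a share near the background. In 4 of them shRNF25 was lower (21.8% of all tested genes) and in 1 it was higher (20.7%).

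**Figure D1:**
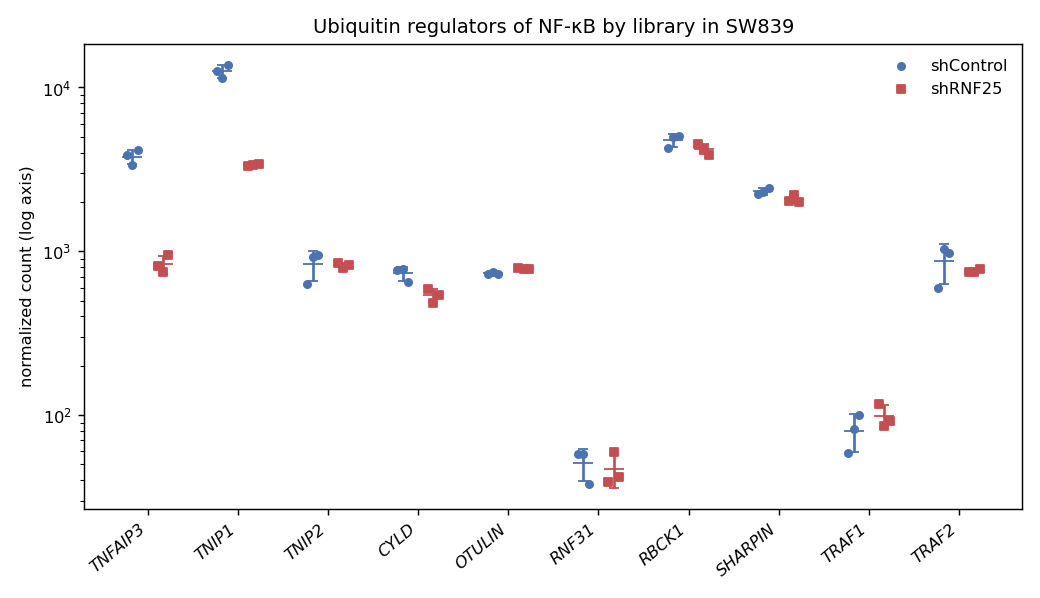
Normalized count of each member (log axis) in the 3 shControl libraries (circles) and the 3 shRNF25 libraries (squares), with the group mean as a dash and its SD as a bar. TNFAIP3 and TNIP1 drop from 3786 to 832.4 and from 12579 to 3354, while the groups of the other members lie close together or overlap.

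TNFAIP3 encodes A20, a deubiquitinase and ubiquitin ligase that trims signaling chains. In GENCODE 29 it spans 137867188 to 137883312 on chromosome 6 (GRCh38). The 3 shControl libraries gave normalized counts of 3857, 3373 and 4128, in the order of their replicate numbers, and the 3 shRNF25 libraries gave 810.0, 743.4 and 943.7. The highest shRNF25 library was thus far below the lowest shControl library. The means were 3786 ± 382.8 (SD, n = 3) and 832.4 ± 102.0 (SD, n = 3), which left 22.0% of the control mean. On the log2(normalized count + 1) scale, used for every log2 fold change here, the difference was -2.19 ± 0.127 (SE) with a limma adjusted p of 1.64e-05. Among the tested genes, 100 had a more negative log2 fold change. The value came from at least 805 reads in each library.

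TNIP1 encodes ABIN1, a ubiquitin-binding protein that recruits A20 to its substrates. Its span on chromosome 5 is 151029945 to 151093577. Its normalized count was 12627, 11439 and 13671 in shControl and 3330, 3345 and 3388 in shRNF25. The shRNF25 libraries were low and nearly equal, with a coefficient of variation of 0.887% against 8.88% in shControl. The difference was -1.90 ± 0.104 (SE) on the log2 scale with a limma adjusted p of 1.11e-05, and 26.7% of the control mean remained. The log2 values of TNFAIP3 and TNIP1 had a Pearson r of 0.996 over the 6 libraries, a description that mostly reflects their shared step between the groups.

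TNIP2 encodes ABIN2, the relative of ABIN1 that also binds A20. Its normalized count was 633.4, 920.3 and 942.2 in shControl and 843.8, 791.4 and 822.6 in shRNF25. All shRNF25 libraries lay inside the range that shControl spanned, and that range was wide because shControl replicate 1 was low. The 95% interval of the log2 fold change ran from -0.36 to 0.36 (adjusted p = 1.00 from limma). A fall of the size seen in TNFAIP3 or TNIP1 lies outside that interval. Without shControl replicate 1 the log2 fold change was -0.19 (adjusted p = 0.0868 from limma).

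Promoter windows of RefSeq (GRCh38.p14), which reach from 250 bases before to 50 bases after a start site, were found for 9 of the 10 members, in 15 windows. They were searched on both strands for the degenerate 10-base κB consensus, the letters that NF-κB dimers are known to bind, a search chosen after the values had been seen. It was present in at least 1 window of 3 of the 9 members, TNFAIP3, TNIP1 and CYLD, and of 7.09% of all 27305 genes with a window (5.91% of all 35116 windows). The match in TNIP1 read GGGACTTTCC, and the same 10 letters, which fall within the consensus, were found in TNFAIP3 and CYLD on the opposite strand and in 0.227% of all genes with a window. This decamer began at position -67 relative to the start site in TNFAIP3, -42 in TNIP1 and -189 in CYLD. It lay in 1 of 2 windows of TNIP1 and in 1 of 3 of CYLD, for alternative starts, and the start of the TNIP1 window lies 12543 bases inside the GENCODE span of the gene. Further consensus matches lay at -55 in TNFAIP3 and at 1 in another CYLD window. The 250 bases before the start are shown for these 3 genes and for TRAF1, another textbook NF-κB target, at chr6:137867009-137867258 (plus strand), chr5:151081035-151081284 (minus strand), chr16:50741836-50742085 (plus strand) and chr9:120929172-120929421 (minus strand). They are written 5′ to 3′ along the gene, and capitals mark matches to the κB consensus.
TNFAIP3: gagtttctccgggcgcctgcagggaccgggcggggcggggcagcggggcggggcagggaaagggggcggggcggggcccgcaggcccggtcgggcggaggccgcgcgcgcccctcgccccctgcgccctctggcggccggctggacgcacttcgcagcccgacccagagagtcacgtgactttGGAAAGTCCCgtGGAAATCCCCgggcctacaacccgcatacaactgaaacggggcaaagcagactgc
TNIP1: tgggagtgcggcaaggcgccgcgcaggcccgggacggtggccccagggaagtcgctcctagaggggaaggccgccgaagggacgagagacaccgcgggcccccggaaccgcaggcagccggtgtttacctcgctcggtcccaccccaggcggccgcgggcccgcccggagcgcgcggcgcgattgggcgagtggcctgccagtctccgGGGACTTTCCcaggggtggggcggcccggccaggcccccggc
CYLD: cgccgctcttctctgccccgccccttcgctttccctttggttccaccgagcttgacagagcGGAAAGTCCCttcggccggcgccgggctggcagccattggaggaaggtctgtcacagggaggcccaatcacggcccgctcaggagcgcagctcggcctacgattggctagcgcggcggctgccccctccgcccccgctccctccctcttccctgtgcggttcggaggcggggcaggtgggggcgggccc
TRAF1: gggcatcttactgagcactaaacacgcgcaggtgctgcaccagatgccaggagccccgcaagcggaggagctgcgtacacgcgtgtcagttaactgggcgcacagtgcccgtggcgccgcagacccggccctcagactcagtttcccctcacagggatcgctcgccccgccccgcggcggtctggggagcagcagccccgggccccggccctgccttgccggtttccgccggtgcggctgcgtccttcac
No match was present in the 3 windows of TRAF1, which says only that these letters are not in those windows. Across all genes, 1026 tested genes had the consensus in a window. Of these, 10.4% were called lower, above the 7.1% of all tested genes, and 7.99% were called higher, near the 8.65%. Their median log2 fold change was -0.07. The decamer was present for 33 tested genes, TNFAIP3, TNIP1 and CYLD among them. Of the 33, 6 (18.2%) were called lower and 1 (3.03%) higher. TNFAIP3 and TNIP1 are 2 of the 6, and the decamer itself was read from TNIP1. These counts are a description without a test.

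Among the deubiquitinases, CYLD was modestly lower and OTULIN was nearly constant. CYLD removes both linear and lysine-linked chains and is a tumour suppressor. The gene occupies 50742050 to 50801935 on chromosome 16. Its normalized count was 771.6, 778.8 and 646.5 in shControl and 588.6, 484.8 and 541.4 in shRNF25. The shRNF25 libraries were all below the lowest shControl library, although the gap between the nearest libraries was small. This gave -0.44 ± 0.129 (SE) on the log2 scale (95% interval -0.73 to -0.15, adjusted p = 0.0381 from limma), where 21.3% of all tested genes had an adjusted p below 0.05. The adjusted p rose above 0.05 under 9 of 16 alternatives, while the log2 fold change stayed between -0.53 and -0.37. That p was 0.0982 in limma without shControl replicate 2 and 0.0851, 0.184 and 0.140 without shRNF25 replicates 1, 2 and 3.

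OTULIN cuts linear chains only and keeps LUBAC from modifying itself. Its normalized count was 724.1, 752.1 and 724.2 in shControl and 791.8, 780.4 and 779.7 in shRNF25. All shRNF25 libraries were above all shControl libraries by a narrow margin, in the member with the smallest spread. The log2 difference was 0.10 (95% interval -0.13 to 0.32, adjusted p = 0.530 from limma). With the spread within each group at 2.20% and 0.869% of the mean, the two-sided exact permutation test gave p = 0.1, the smallest that 3 libraries against 3 allow.

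**Figure D2:**
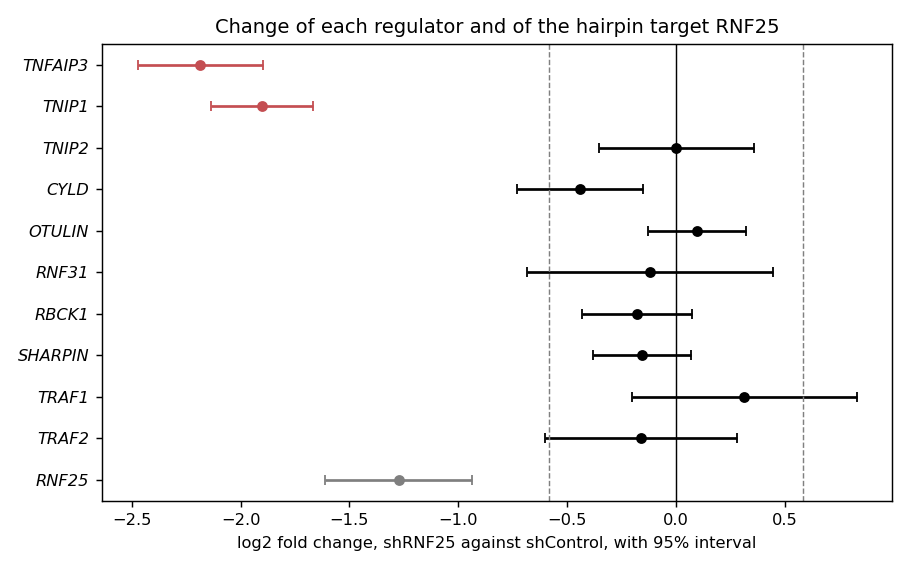
Log2 fold change of shRNF25 against shControl (horizontal axis) with its 95% interval from limma for each member and for RNF25, the hairpin target (grey). Dashed lines mark a 1.5-fold change. The intervals of TNFAIP3 and TNIP1 end at -1.90 and -1.67, beyond the dashed line, and those of the other members except CYLD cross 0.

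The LUBAC genes showed no change that passed the test. RNF31 encodes HOIP, the catalytic subunit that joins ubiquitins head to tail, and RBCK1 and SHARPIN encode its partners. RBCK1 was at 4260, 4989 and 5063 normalized counts in shControl and 4496, 4218 and 3896 in shRNF25. Of the shRNF25 libraries, 2 lay below all shControl libraries and replicate 1 lay among them. Its log2 fold change was -0.18 (95% interval -0.43 to 0.07, adjusted p = 0.283 from limma). Without shControl replicate 1 it was -0.26 with an adjusted p of 0.0330 from limma.

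SHARPIN was at 2229, 2297 and 2436 in shControl and 2026, 2212 and 2005 in shRNF25. The groups touched closely without overlap, shRNF25 being lower. The log2 fold change was -0.16 (95% interval -0.38 to 0.07, adjusted p = 0.292 from limma).

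RNF31 was the least abundant member, at 57.5, 57.5 and 37.8 normalized counts in shControl and 39.2, 59.1 and 41.9 in shRNF25. The libraries of both groups covered the same range, on 35 to 64 reads each. A log2 fold change of -0.12 resulted (95% interval -0.68 to 0.45, adjusted p = 0.773 from limma). A fall of 1.5-fold lies inside this interval, while a rise of that size lies outside it. In GENCODE 29, 34.8% of the exon bases of RNF31 are shared on the same strand with AL136295.5, a gene that reads on past its end. HTSeq, the counter in the submitters' processing notes, leaves out reads that lie in exons of several genes in its default mode, and the mode used is not given in the sources used here. AL136295.5, named after its values were seen, was at 8.84, 19.5 and 21.6 in shControl and 68.3, 50.8 and 55.3 in shRNF25, with all shRNF25 libraries higher. It rose by 1.82 ± 0.333 (SE) on the log2 scale with a limma adjusted p of 0.00512. Its part in the count of RNF31 was not tested, and the level of RNF31 is uncertain for that reason.

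The TRAF adaptors also showed no change that passed the test. TRAF2 is the ligase-type adaptor that brings cIAP proteins to TNF receptors, and TRAF1 is its partner without a RING finger. TRAF2 was at 592.5, 1038 and 980.0 in shControl and 749.0, 743.4 and 774.0 in shRNF25. The shRNF25 libraries were tightly grouped between the low shControl replicate 1 and the other shControl libraries. This amounted to a log2 fold change of -0.16 (95% interval -0.60 to 0.28, adjusted p = 0.593 from limma). Without shControl replicate 1, the library with the high mitochondrial share, it was -0.42 with an adjusted p of 0.00295 from limma, a fold change still short of 1.5.

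TRAF1, on chromosome 9 from 120902393 to 120929173, was at 58.6, 82.1 and 100.4 in shControl and 117.5, 85.9 and 92.5 in shRNF25, on 53 to 129 reads. The groups overlapped, and 1 shRNF25 library was above all shControl libraries. The log2 fold change was 0.31 (95% interval -0.20 to 0.83, adjusted p = 0.362 from limma). The interval excludes a 1.5-fold fall and leaves room for a rise of up to 1.78-fold.

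Per kilobase of exon (GENCODE 29), the members spanned a wide range of levels in shControl. The length covers all annotated exons of a gene, whether used in these cells or not, so that unused exons lower its value. For RNF31 it includes the bases shared with AL136295.5. TNIP1 was highest at 2171 ± 192.8 normalized counts per kilobase (SD, n = 3), followed by RBCK1 at 1186 ± 110.2, SHARPIN at 833.8 ± 38.0 and TNFAIP3 at 749.5 ± 75.8. TNIP2 (309.8 ± 64.2) and TRAF2 (237.6 ± 66.2) came next, then OTULIN (85.1 ± 1.87), CYLD (56.5 ± 5.74), TRAF1 (12.5 ± 3.25) and RNF31 (10.2 ± 2.28). The ranges of neighbours overlapped for SHARPIN and TNFAIP3, for TNIP2 and TRAF2, and for TRAF1 and RNF31. In shRNF25, RBCK1 was highest at 1044 ± 74.6 per kilobase and SHARPIN next at 747.6 ± 41.0. TNIP1 followed at 579.0 ± 5.13, and TNFAIP3 was at 164.8 ± 20.2, between TRAF2 at 206.2 ± 4.44 and OTULIN at 91.0 ± 0.791. No neighbours overlapped in shRNF25.

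Log2 ratios between members were also taken within each library, where the scaling of the library cancels apart from the added 1. The 5 ratios were tested together, and an exact permutation test of 3 against 3 cannot go below 0.1. TNFAIP3 to CYLD was at 2.32, 2.11 and 2.67 in shControl and 0.46, 0.62 and 0.80 in shRNF25, a difference of -1.74 (two-sided exact permutation test, p = 0.1, Benjamini-Hochberg adjusted over the 5 ratios 0.25). The A20 transcript was thus lower relative to CYLD in every shRNF25 library. TRAF1 to TRAF2 was at -3.32, -3.65 and -3.27 in shControl and -2.66, -3.10 and -3.05 in shRNF25, a difference of 0.47 (two-sided exact permutation test, p = 0.1, adjusted 0.25). This ratio did not overlap between the groups, although neither gene alone passed its test. The ratios of RBCK1, SHARPIN and OTULIN to RNF31 overlapped between the groups, with differences of -0.06, -0.04 and 0.21 (exact permutation test, p = 0.9, 0.8 and 0.4).

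The other genes of the pathway were taken from a list of 39 genes, of which 36 were tested. Of these, 4 were lower and 1 was higher past the study's criteria, 4 more had an adjusted p below 0.05 with a smaller change, and 27 did not pass. Over all tested genes, 7.1% were called lower, 8.65% higher and 15.7% in either direction, and 21.3% had an adjusted p below 0.05. The pathway counts in either direction are near these shares. The median log2 fold change was -0.17, against -0.16 over the members, and 15 of the 36 had no overlap between the groups, which is close to the 42.5% of all tested genes.

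**Figure D3:**
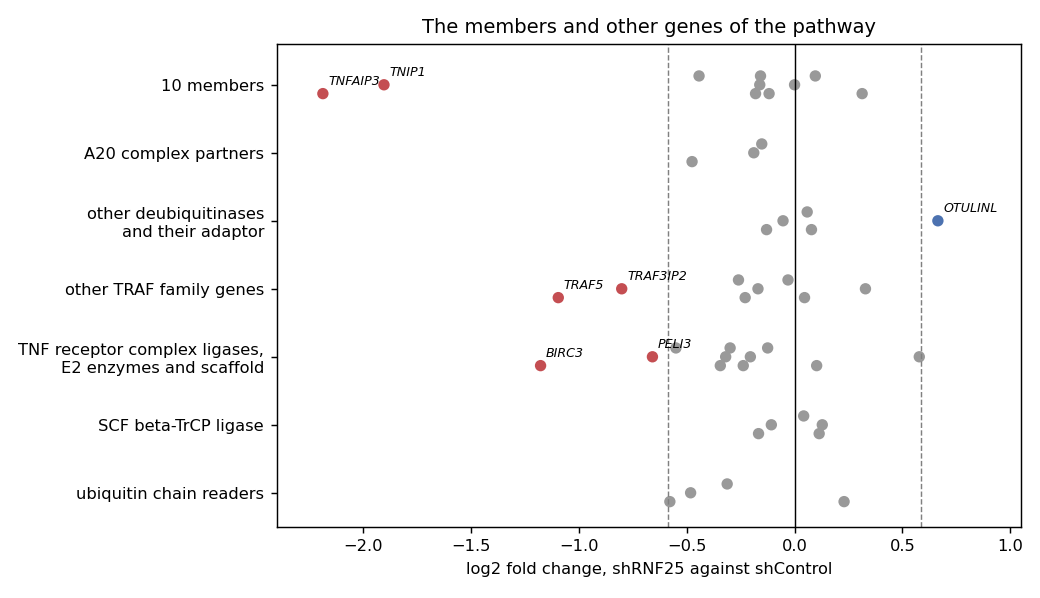
Log2 fold change (horizontal axis) of the members and of the tested genes of each group of the pathway list. Points in red passed the criteria as lower, the point in blue as higher, and grey points did not, and dashed lines mark a 1.5-fold change. TNFAIP3 and TNIP1 at -2.19 and -1.90 lie further left than every other gene drawn, of which BIRC3 at -1.18 is the next.

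Among the ligases, E2 enzymes and scaffolds of the TNF receptor complex, 2 of 11 tested genes were lower, against 7.1% of all tested genes. BIRC3, which encodes cIAP2, fell with a log2 fold change of -1.18, and its close relative BIRC2 (cIAP1) had 0.10 (adjusted p = 0.674 from limma). PELI3, a Pellino ligase of interleukin-1 and Toll-like receptor signaling, had a mean of 612.7 ± 125.1 in shControl and 382.4 ± 19.4 in shRNF25 (SD, n = 3), and fell with a log2 fold change of -0.66 (adjusted p = 0.0186 from limma). RIPK1, the kinase that carries chains in this complex, had 0.58 (adjusted p = 0.00729 from limma), just short of 1.5-fold, and UBE2N, the E2 enzyme of lysine-linked signaling chains, -0.55 (adjusted p = 0.0121 from limma).

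Among the other TRAF family genes, 2 of 8 were lower, against 7.1% of all tested genes. TRAF5, a receptor adaptor related to TRAF2, was at 396.9, 331.4 and 264.4 in shControl and 172.2, 151.5 and 135.4 in shRNF25, a difference of -1.10 ± 0.177 (SE) on the log2 scale with a limma adjusted p of 0.00300. TRAF3IP2, which encodes the interleukin-17 receptor adaptor Act1, had a mean of 859.3 ± 43.8 in shControl and 492.6 ± 21.6 in shRNF25 (SD, n = 3), which is -0.80 on the log2 scale (adjusted p = 0.00122 from limma). TRAF3, TRAF4, TRAF6 and TRAF7 had values between -0.26 and 0.05 and did not pass.

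Of the remaining groups, 1 gene met the criteria, as did 15.7% of all tested genes in either direction. The tested genes were 3 in the A20 complex, 5 other deubiquitinases and their adaptor, 5 of the SCF β-TrCP ligase and 4 chain readers. OTULINL, a relative of OTULIN, was at 518.5 ± 142.1 in shControl and rose to 804.8 ± 55.4 (SD, n = 3), by 0.66 on the log2 scale (adjusted p = 0.0283 from limma). In the A20 complex, the ligase ITCH had -0.48 (adjusted p = 0.0242 from limma), and TAX1BP1 and RNF11 did not pass. Of the ubiquitin chain readers, OPTN had -0.58 (adjusted p = 0.0102 from limma). None of the 5 genes of the SCF β-TrCP ligase, which marks IκB for degradation, passed at an adjusted p below 0.05 in limma, edgeR or DESeq2 or at an unadjusted one, and their log2 fold changes ran from -0.17 to 0.13. In limma 21.3% of all tested genes had an adjusted p below 0.05, and 5 genes are too few to tell 0 from that share. When each library was left out in turn, PELI3 met both criteria only without shControl replicate 1 (-0.83) and OTULINL only without shControl replicate 3 (0.88). Without shControl replicate 3, PELI3 was at -0.53, and without shControl replicate 1, OTULINL was at 0.58, each short of 1.5-fold with an adjusted p still below 0.05. Without shControl replicate 2 or any single shRNF25 library the adjusted p from limma rose above 0.05 for both, up to 0.0935 for PELI3 at -0.69 to -0.62 and up to 0.116 for OTULINL at 0.54 to 0.72.

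For comparison, a list of 12 NF-κB target genes had 8 lower and 0 higher genes in limma, with a median log2 fold change of -1.16. Over all tested genes, 7.1% were called lower and 8.65% higher. The list was chosen with earlier results of these data known, so that its counts are a description and no independent support. Its count of higher genes was 0 with edgeR and DESeq2 too, and at an unadjusted p below 0.05. BIRC3 is in both lists. NFKBIA, which encodes the feedback inhibitor IκBα, was at 5903, 5454 and 6625 in shControl and 2550, 2521 and 3042 in shRNF25, a log2 fold change of -1.15 (adjusted p = 0.000328 from limma). The log2 fold changes of TNFAIP3 and TNIP1 lay between those of CXCL1 (-3.78), CXCL8 (-3.68) and CXCL2 (-2.74), which encode chemokines, and those of the other 9 genes of the list, from -1.69 for ICAM1 to 0.08 for NFKB1. Differences between genes were not tested. NFKBIE at -0.58 (adjusted p = 0.0252 from limma) was short of 1.5-fold, and NFKB2 at -0.38 (adjusted p = 0.0627 from limma), RELB at -0.18 and NFKB1 did not pass.

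The 3 tested genes most like TNFAIP3 over the 6 libraries, by Pearson r of log2 values, were LINC02015 (r = 0.999), PI4KAP1 (r = 0.999) and MAST3 (r = 0.999), with log2 fold changes of -4.59, -0.73 and -0.50. They share the step between the groups, and their sizes of change differ widely. The 3 most like TRAF1 were AC018521.5 (r = 0.996), INHBE (r = 0.989) and ATXN1-AS1 (r = 0.987), which like TRAF1 were lowest in shControl replicate 1 and highest in shRNF25 replicate 1.

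**Figure D4:**
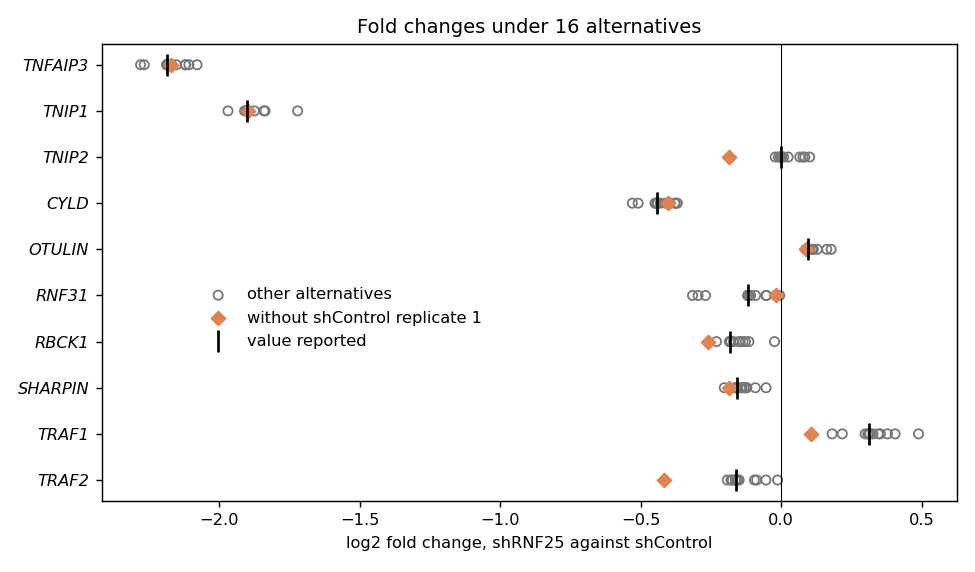
Log2 fold change (horizontal axis) of each member as reported (vertical bar), without shControl replicate 1 (diamond) and under the other alternatives (open circles). TNFAIP3 stays between -2.28 and -2.08 and TNIP1 between -1.97 and -1.72, while TRAF2 moves from -0.16 to -0.42 without shControl replicate 1.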

How the data were processed

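The study sequenced total RNA of SW839 cells after depletion of ribosomal RNA. The submitters' processing notes name fastp, HISAT2, HTSeq and GRCh38, and the study's methods name DESeq2, while the annotation and the strand setting of the counting are not given in the sources used here. The authors deposited a signal per gene and library, read counts divided by 1 scaling factor per library. Whole reads came back for 100% of the values within 0.01 reads. No pair of libraries of a group agreed within sampling noise (chi-square per gene of 21.6 to 109.9 in shControl and 3.72 to 5.35 in shRNF25, so that the shControl libraries were less alike).

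After a pseudocount of 1, log2 values of the 16554 genes at 10 or more in at least 3 libraries were fitted with limma 3.58.1 (eBayes with a trend, R 4.3.3) with group as the only term and Benjamini-Hochberg adjustment. Standard errors and 95% intervals are limma's. Single values were also compared with two-sided exact permutation tests. Alternatives, run on the recovered reads where a count model was used (edgeR 4.0.16, DESeq2 1.42.0), also changed the pseudocount, filter, scaling, library weights, block and libraries. The scripts were tested on simulated data with the same added spread for every gene and library. That setting does not mimic the greater differences among the shControl libraries.

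The members and lists were chosen with earlier results of these data known. The genes named are the 10 members, RNF25, up to 3 genes per group of the pathway list past the criteria, and the 3 genes most like TNFAIP3 and TRAF1, and others were named after their values were seen. Positions come from GENCODE 29 and promoters from RefSeq, both matched by symbol.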

Additional observations from a re-analysis of the deposited data

How the results depend on the processing

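The count of 2 lower and 0 higher members was the same under all 17 alternatives. TNFAIP3 and TNIP1 kept an adjusted p below 0.05 under 16 of 16, with largest values of 0.000386 and 0.00033, and RNF25 ranged from -1.34 to -1.15. TNIP2, close to 0, changed sign with a pseudocount of 5 (-0.00011) and with DESeq2 (-0.010), and ranged from -0.19 to 0.10 when each library was left out in turn. In those fits the ratio of RBCK1 to RNF31 ranged from -0.24 to 0.18 and that of SHARPIN to RNF31 from -0.17 to 0.19, across 0. Of the pathway genes, 2 were lower and 0 higher at a fold change of at least 2, by construction. The count of lower genes, 4 with all libraries, ran from 3 to 5 when each library was left out. There were 2 higher genes with quantile normalization, median-ratio rescaling, edgeR and DESeq2, and 0 to 1 when each library was left out (0 without shControl replicate 1 or shRNF25 replicate 1 or 3), and the cause was not tested. The replicate numbers did not pair the libraries (correlations of -0.0638, -0.0874 and 0.0471 between deviations of same-numbered libraries), and with the replicate number as a block 2 members were lower and CYLD, at -0.44, had an adjusted p of 0.0637 from limma. RNF31 and TRAF1 rest on the fewest reads, as few as 35 and 53 in a library.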
